A study of Mus musculus with 6 samples.

Results

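G2/M transit-amplifying cells of the mouse small-intestinal epithelium are dividing crypt cells that carry the transcripts of late cell division and in which no transcript of the stem cell receptor Lgr5 was counted. They were found in 10x 3′ single-cell libraries by a rule on unique molecular identifiers (UMIs, each of which marks 1 captured RNA molecule). The members were thus chosen by measured UMI counts of the genes named here. A barcode was eligible with at least 500 genes and at most 25% of its UMIs from mitochondrially encoded genes. A member was an eligible barcode with 0 UMIs of Lgr5, of Atoh1 (the transcription factor that starts the secretory lineage) and of Neurog3 (the factor that starts the enteroendocrine lineage). Its UMIs of 8 genes, Mki67, Top2a, Ube2c, Cdk1, Birc5, Nusap1, Prc1 and Cenpf, also had to sum to at least 8 per 10000 UMIs. The rule found 4268 members, 16.4% of 26045 eligible barcodes and 16.3% of all 26153 barcodes. Of 6390 eligible barcodes that reached the sum, 5242 had no Lgr5 UMI, and 974 of these were left out for an Atoh1 or Neurog3 UMI.

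The study, per its title, addressed how T cells that carry an integrin with the β7 subunit act on intestinal stem cell fate. It held 3 libraries of wild-type C57BL/6J mice and 3 libraries of mice labelled Itgb7-/-, of the same strain, both 8 weeks old. All 6 libraries were of small-intestinal epithelial cells. No agent or other allele is named for either group, and the labels give neither the deleted part of Itgb7 nor how many animals went into a library, so p-values measure the spread between libraries, which may be technical.

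At the base of each crypt, Lgr5-positive stem cells divide under Wnt and Notch signals, and their daughters divide further as transit-amplifying cells before they become absorptive enterocytes or secretory cells. In the G2 phase and mitosis a cell makes mitotic cyclins, which switch on Cdk1, and then kinesins, kinetochore proteins and the anaphase-promoting complex, which pull the chromosomes apart and degrade the cyclins. Many of these genes are held silent in resting cells by the DREAM complex through a promoter element called the cell cycle genes homology region (CHR), and their promoters often also carry CCAAT boxes, which the factor NF-Y binds.

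The 8 genes of the rule act in this machinery. Cdk1 is the mitotic kinase itself, Top2a untangles replicated DNA, Mki67 coats mitotic chromosomes, and Ube2c is the ubiquitin-conjugating enzyme of the anaphase-promoting complex. Birc5 (survivin) belongs to the chromosomal passenger complex, Nusap1 and Prc1 bundle spindle microtubules, and Cenpf sits at the kinetochore. Stretches of 150 bases that end at the annotated transcription start are shown for 5 of them, because they hold the promoter elements named above in 4 cases and neither in the other (RefSeq sequences, build GRCm38.p6, written 5′ to 3′ along the gene). Capitals mark TTTGAA, a common form of the CHR, and CCAAT, each on either strand, so that they also read TTCAAA and ATTGG.
Cdk1, chr10:69352913-69353062, minus strand: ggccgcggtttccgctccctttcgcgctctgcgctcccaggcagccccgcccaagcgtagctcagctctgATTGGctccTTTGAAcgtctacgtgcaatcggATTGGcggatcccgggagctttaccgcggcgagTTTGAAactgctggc
Top2a, chr11:99024190-99024339, minus strand: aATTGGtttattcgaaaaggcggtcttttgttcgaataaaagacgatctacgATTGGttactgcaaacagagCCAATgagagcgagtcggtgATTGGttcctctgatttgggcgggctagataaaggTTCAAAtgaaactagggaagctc
Mki67, chr7:135716380-135716529, minus strand: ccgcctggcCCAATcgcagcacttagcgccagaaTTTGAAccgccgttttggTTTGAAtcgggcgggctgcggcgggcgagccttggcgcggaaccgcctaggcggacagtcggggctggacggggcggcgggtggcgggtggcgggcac
Ube2c, chr2:164769779-164769928, plus strand: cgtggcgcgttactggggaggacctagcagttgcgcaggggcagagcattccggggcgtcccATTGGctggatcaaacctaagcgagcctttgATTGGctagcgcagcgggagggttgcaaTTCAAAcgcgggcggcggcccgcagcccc
Birc5, chr11:117849087-117849236, plus strand: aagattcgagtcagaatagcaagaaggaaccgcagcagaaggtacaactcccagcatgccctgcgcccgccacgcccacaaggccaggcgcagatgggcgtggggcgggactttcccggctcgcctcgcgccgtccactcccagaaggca

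Cdk1 and Mki67 each held TTTGAA 2 times in these stretches, and Top2a and Ube2c held its reverse complement 1 time each. In the 250 bases before the start, TTTGAA stood in 5 of the 9 promoters listed for the 8 rule genes (55.6%), CCAAT in 7 (77.8%) and both in 5. Over all 32851 promoters of the table the shares were 15.99%, 33.8% and 5.55%. The promoters of Birc5 and Nusap1 held neither motif in these windows. Among 77 promoters of 69 genes (of 84) on 4 lists of mitosis genes outside the rule, 31.2% held TTTGAA and 70.1% held CCAAT. Among 37 promoters of 32 S-phase and replication genes (of 39) these shares were 10.8% and 59.5%, and among 18 of enterocyte marker genes (of 22) 16.7% and 27.8%. Promoters with TTTGAA were thus more frequent in the mitosis lists than in the table as a whole. The S-phase share rested on 4 of 37 promoters and is not read as a difference from the table. These counts are a description, with no test.

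The 6 libraries held 28475253 to 76133693 UMIs, of which 5039407 to 13864557 came from members. Wild-type library 1 and library 1 labelled Itgb7 KO stood apart from the rest. Their smallest barcodes held 13621 and 7754 UMIs, against 1417 to 2946 in the other 4 libraries. Over genes, the log2 CPM (counts per 1000000 UMIs) of members correlated at r = 0.994 between these 2 libraries and at 0.888 to 0.954 with the other 4, which correlated at 0.9505 to 0.986 among themselves (a description across genes, which are not independent). Paneth cell markers summed to 6398, 271 and 465 CPM in members of the wild-type libraries and to 4400, 680 and 252 CPM in those labelled Itgb7 KO. Library pairs shared 12 to 42 barcode sequences, and 139 members carried a barcode that also occurred in another library. The deposited names carry serial numbers, and libraries with nearby numbers were grouped here. Wild-type library 1 was grouped with library 1 labelled Itgb7 KO, and wild-type library 2 with libraries 2 and 3 labelled Itgb7 KO. Wild-type library 3 has a serial number away from the others. This grouping is a reading of the numbers, and the labels state no batch.

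Members made up 16.5%, 17.0% and 12.7% of eligible barcodes in wild-type libraries 1 to 3 and 18.8%, 19.5% and 14.4% in the libraries labelled Itgb7 KO, which are 458, 857, 653, 524, 1120 and 656 cells. The groups overlapped, since library 3 labelled Itgb7 KO lay below 2 wild-type libraries. The means were 15.4% ± 2.34 (SD, n = 3) and 17.6% ± 2.79 (SD, n = 3), and the difference of 2.16 percentage points did not pass an exact 2-sided permutation test over libraries (p = 0.4, where 0.1 is the smallest value that 3 against 3 allow). Paired by library number the share was higher in 3 of 3 pairs (exact permutation p = 0.25, the smallest that 3 pairs allow). Within serial groups, 16.5% stood against 18.8%, and 17.0% against 19.5% and 14.4%, while wild-type library 3 had no partner. When each barcode was thinned to 3000 UMIs before the rule was applied, the shares were 26.8%, 22.6% and 17.8% in wild-type and 25.9%, 22.8% and 16.2% in the libraries labelled Itgb7 KO, and the difference turned to -0.788 percentage points (exact permutation p = 0.8, n = 3). The thinned set was a different one, since only 55.3% to 78.4% of it by library were members with all UMIs. Barcodes under 3000 UMIs were dropped, most of them, 337, from library 3 labelled Itgb7 KO.

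**Figure D1:**
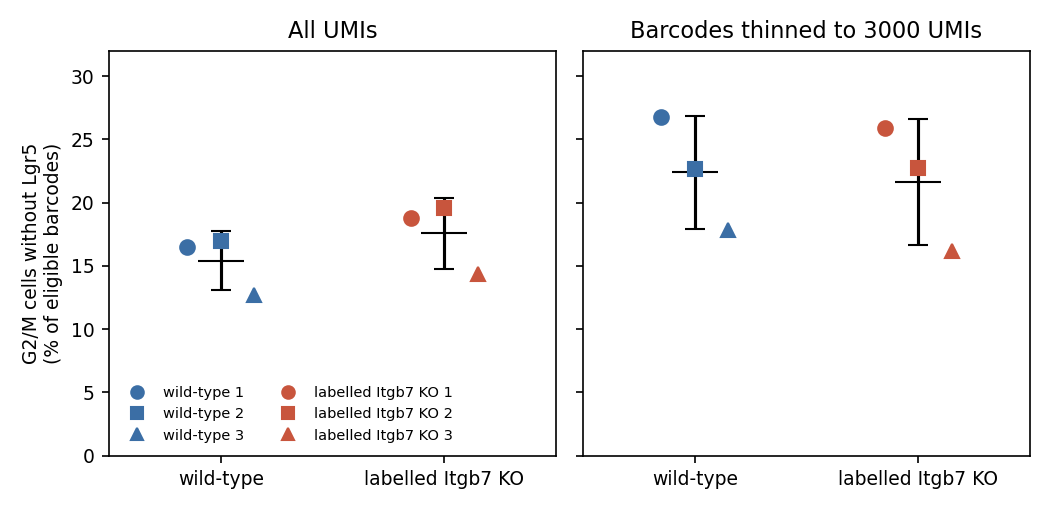
Share of eligible barcodes that are G2/M cells without Lgr5 (y axis, percent), by genotype label, with all UMIs on the left and after thinning to 3000 UMIs on the right. Points are libraries, and horizontal marks and bars are the mean and SD of 3 libraries. The groups overlap in both panels, and the order of the means (15.4% and 17.6% with all UMIs) turns after thinning.

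A barcode with few UMIs reaches 0 UMIs of Lgr5, Atoh1 and Neurog3 more easily than a deep one. Of the barcodes that reached the sum, 24.1%, 22.6% and 19.2% had an Lgr5 UMI in wild-type libraries, against 20.2%, 11.04% and 13.0% in the libraries labelled Itgb7 KO, at median depths of 28391, 15336, 15262, 25032, 12694 and 7999 UMIs. As a background, the eligible barcodes that did not reach the sum were ranked by their enterocyte marker sum. The highest 10% of these, which should lack Lgr5, had an Lgr5 UMI in 1.55% to 3.73% of cases, at median depths of 6620 to 20876 UMIs. Atoh1 was counted in 11.02% to 26.2% of barcodes that reached the sum and in 2.43% to 9.84% of this background, and Neurog3 in 1.86% to 4.74% and 0.270% to 3.65%. Members are therefore cells without a counted Lgr5 transcript, and an absence of Lgr5 expression was not detectable at this depth. With any Lgr5 count allowed, the share differed by 0.750 percentage points between the labelled genotypes (exact permutation p = 0.6, n = 3). As a share of the eligible barcodes with Lgr5, Atoh1 and Neurog3 all at 0, it differed by 0.648 points (exact permutation p = 0.9, n = 3), so both differences were smaller than the 2.16 points given above.

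Members were deep barcodes. Their median UMI count was 28062.5, 15343 and 14638 in wild-type libraries, against 24085.5, 12445.5 and 7961 in the libraries labelled Itgb7 KO, 1.23 to 1.39 times that of all other eligible barcodes. Their median number of genes was 2679 to 4886, and their median mitochondrial share 3.45% to 4.90%. Barcodes in the top 5% of their library by UMIs numbered 402, or 9.42% of members. No doublet caller was run, and whether droplets with 2 cells are among these was not tested.

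The rule genes themselves chose the members, so their levels are given without a test. The sum had a median of 21.4, 20.4 and 18.5 per 10000 UMIs in wild-type and 20.4, 21.1 and 19.04 in the libraries labelled Itgb7 KO, with a highest value of 56.6, against medians of 0 to 1.79 in other barcodes. Ube2c stood at 703.5, 664.8 and 599.2 CPM in members of the wild-type libraries and at 694.3, 698.2 and 531.4 CPM in those labelled Itgb7 KO. Birc5 varied least in this set, from 440 to 486 CPM over all 6 libraries. Nusap1 varied most, with 114, 160 and 143 CPM against 110, 193 and 247 CPM, lowest in the 2 libraries numbered 1. Ube2c was counted in 86.4% to 100% of members and Birc5 in 92.2% to 100%. All 8 genes were counted in the same cell in 66.2%, 37.3% and 30.6% of members of the wild-type libraries and in 53.1%, 27.9% and 7.77% of those labelled Itgb7 KO. These shares stand in the same order as the median depths of members given above. In 15 members, all from library 3 labelled Itgb7 KO, the sum rested on 2 UMIs or fewer.

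Genes of mitosis that the rule did not use were high in members. Each gene that averaged at least 10 CPM in members or in the barcodes they were set against was compared in each library, as a description, since the rule chose the cells in this contrast. Of 7612 such genes, 48.9% were higher in members than in all other eligible barcodes in 6 of 6 libraries and 18.3% were lower in 6 of 6. Against this background all 15 mitotic cyclin, kinase and phosphatase genes were higher in 6 of 6, with a summed level 2.82 to 3.85 times that of other barcodes. The same held for 27 of 27 kinesin and spindle genes (2.41 to 3.28 times), 22 of 22 kinetochore and chromosomal passenger genes (2.80 to 3.76 times) and 16 of 16 spindle checkpoint and anaphase-promoting complex genes (2.12 to 2.39 times). It held too for 20 of 20 condensin, cohesin and chromatin genes (1.84 to 2.171 times).

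Several regulators led this set. Plk1, the kinase that drives mitotic entry, stood at 96.4, 87.7 and 72.9 CPM in members of the wild-type libraries and 87.9, 102.6 and 77.2 CPM in those labelled Itgb7 KO, 3.96 to 7.82 times its level in other barcodes. Aurka, the kinase of spindle poles, averaged 98.9 ± 13.0 CPM (SD, n = 6) in members and 18.8 ± 4.46 CPM (SD, n = 6) in other barcodes. Its partner Tpx2 was 3.73 to 7.12 times as high in members, and Aurkb, the kinase of the chromosomal passenger complex, 3.61 to 7.44 times. Cenpe, a kinesin that carries chromosomes along the spindle, averaged 74.7 ± 6.25 CPM (SD, n = 6) against 15.9 ± 3.06 CPM (SD, n = 6), and had the highest smallest ratio, 4.17, of the genes outside the rule with at least 50 CPM in members. Kif11, the motor that separates spindle poles, reached 3.79 to 8.47 times and Hmmr, a spindle assembly factor, 3.84 to 7.19 times. Ccna2, cyclin A2, averaged 197 ± 27.4 CPM (SD, n = 6) against 49.8 ± 5.79 CPM (SD, n = 6). For these genes the ratios were lowest in the 2 deep libraries numbered 1 or in wild-type library 2 and highest in library 3 labelled Itgb7 KO, the shallowest. The part of depth in this was not tested.

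Transcription factors of this programme were higher too. Foxm1, the factor that activates many G2/M genes, stood at 25.4, 27.2 and 22.7 CPM in the wild-type libraries and 26.4, 20.7 and 15.1 CPM in those labelled Itgb7 KO, 3.55 to 5.32 times other barcodes. Mybl2 (B-Myb), a partner of the MuvB proteins, was 2.11 to 3.13 times as high, whereas E2f1, a factor of the G1 to S transition, was higher in 3 of 6 libraries. S-phase and replication genes were higher in 6 of 6 libraries for 31 of 38 genes, though by less (1.56 to 1.92 times in sum). Rrm2, a subunit of ribonucleotide reductase, was among them at 2.65 to 3.51 times. The 7 histone genes above the limit split into 5 higher and 1 lower in 6 of 6, and Hist1h2ap, a replication-dependent H2A gene, was 3.83 to 8.36 times as high. A 3′ count of UMIs was used, and most such histone transcripts carry no poly(A) tail, so their counts may not follow their amount.

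Cell-cycle inhibitors were mixed, with 5 of 13 higher and 7 lower in 6 of 6 libraries. Cdkn2c (p18) was 2.72 to 3.95 times as high in members and Cdkn3, a phosphatase of cyclin-dependent kinases, 2.04 to 3.14 times. Cdkn1b (p27) was 1.40 to 1.74 times as high, whereas Cdkn1c (p57) stood at 0.342 to 0.770 of its level in other barcodes. Immediate early and heat-shock genes were lower in 6 of 6 libraries for 10 of 13 genes, among them Fos at 0.422 to 0.653 of its level in other barcodes. All 18 ribosomal protein genes were higher, by 1.104 to 1.28 times in sum.

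Markers of differentiated cells were low. Goblet cell markers were lower in 6 of 6 libraries for 12 of 12 genes, with a sum at 0.0668 to 0.156 of that in other barcodes, and Paneth cell markers for 12 of 13 (0.0733 to 0.173). Enteroendocrine markers were lower for 11 of 14 (0.0952 to 0.335) and enterocyte markers for 19 of 19 (0.324 to 0.538). The rule left out cells with Atoh1 or Neurog3 UMIs, so low secretory markers are no finding. Spink4, a goblet cell product, was 7.85 to 16.1 times lower in members, and Muc2, the main gut mucin, 4.28 to 9.25 times lower. Markers of T cells and other leukocytes summed to 1.59 to 3.42 CPM in members, those of stromal and endothelial cells to 0.223 to 0.988 CPM and those of tuft cells to 4.20 to 10.2 CPM. Medians per cell lay closer together than these sums. The enterocyte sum had medians of 22.3, 18.2, 20.1, 20.9, 23.1 and 16.8 per 10000 UMIs in members of the 6 libraries and 27.9, 21.9, 27.5, 26.6, 36.7 and 25.3 in other barcodes. The goblet sum had medians of 12.8 to 44.1 in members and 15.4 to 52.2 in other barcodes, and the enteroendocrine sum of 0.577 to 1.55 and 0.851 to 2.22, lower in members in 6 of 6 libraries for all 3 lists. Cell by cell, the enterocyte marker sum exceeded the 90th percentile of the other barcodes of its library in 4 members (0.0937%), the goblet sum in 8 (0.187%), the Paneth sum in 39 (0.914%) and the enteroendocrine sum in 38 (0.890%). The Paneth sum had a median per cell of 62.5, 1.75 and 3.53 per 10000 UMIs in wild-type libraries, against 31.5, 1.89 and 1.21 in the libraries labelled Itgb7 KO, close to the medians of other barcodes there (69.1, 2.26, 4.10, 34.8, 2.27 and 1.69).

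The label calls these cells transit-amplifying, and its 5 markers are all genes of the rule, so they do not check it. Stem cell genes averaged little above the other barcodes in sum (1.03 to 1.28 times, 9 of 17 genes higher and 1 lower in 6 of 6). Genes on the transit-amplifying and early absorptive list stood at 0.639 to 0.841, with 3 of 12 higher and 6 lower, among them Reg3b, an antimicrobial lectin, 1.97 to 2.97 times lower. Per cell, the median of that list was higher in members than in other barcodes in 3 libraries (52.2 against 48.0483, 34.0 against 33.2 and 39.5 against 32.9 per 10000 UMIs in wild-type libraries 1 and 2 and library 1 labelled Itgb7 KO) and lower in the other 3. The sum of the list was 1.29 to 1.56 times that in Lgr5-positive barcodes, with 5 of 11 genes higher and 2 lower in 6 of 6 libraries. It was 1.11 to 1.38 times that in S-phase barcodes, with 4 of 11 higher and 1 lower. Both populations are defined further on. Hes1, a target of Notch signalling, was 1.13 to 1.40 times as high in members in 6 of 6 libraries.

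**Figure D2:**
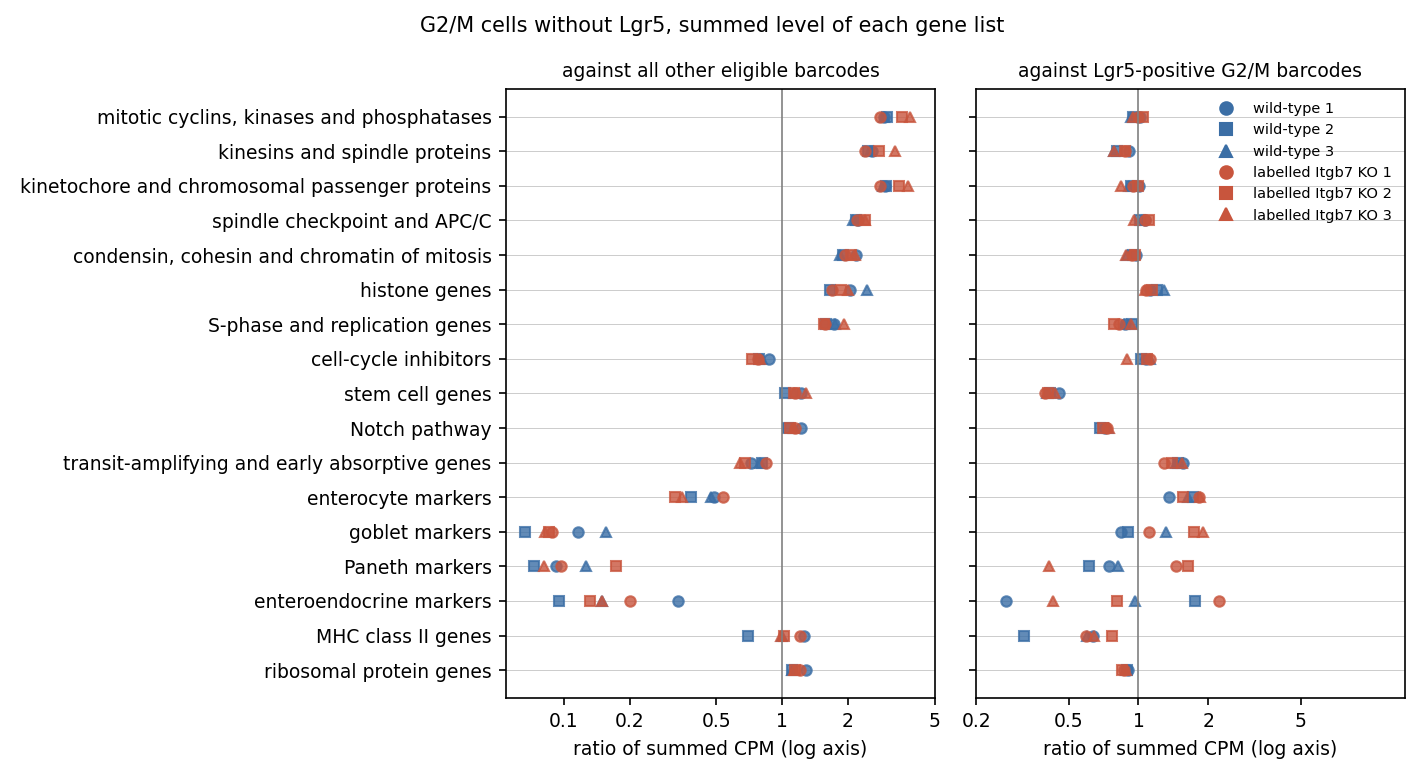
Summed level (CPM) of each gene list in G2/M cells without Lgr5 over that in all other eligible barcodes (left) and in Lgr5-positive barcodes with the same rule sum (right), on a log axis. Points are the 6 libraries, and the grey line marks equal levels. Mitosis lists lie right of the line on the left (mitotic cyclins at 2.82 to 3.85) and near or left of it on the right (mitotic cyclins at 0.932 to 1.04, kinesins at 0.782 to 0.911), where stem cell genes lie at 0.395 to 0.454.

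Members were also split by the height of the rule sum, without a test. The rule genes set these ranges, so other genes of the cell cycle may follow the split by its making. The sum was 8 to under 16 per 10000 UMIs in 1494 members (35.0%), 16 to under 32 in 2429 (56.9%) and 32 to under 64 in 345 (8.08%), which are ranges of a score and not cell types. The sum of 8 S-phase genes (Pcna, Mcm2, Mcm3, Mcm5, Mcm6, Ung, Hells and Uhrf1) reached 8 per 10000 in 41.2%, 11.6% and 1.16% of these ranges, and in 902 members overall (21.1%). From the lowest to the highest range the mitotic cyclin list stood at 1079 to 1277, 1778 to 2031 and 2168 to 2595 CPM over the 6 libraries, with no overlap between ranges. The S-phase and replication list ran the other way, at 2238 to 3711, 1776 to 2699 and 1333 to 1836 CPM, lower from range to range in 6 of 6 libraries although the libraries overlapped.

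Single genes showed the same order. Plk1 stood at 44.5 to 57.6, 87.9 to 115 and 98.2 to 168 CPM, and Aurka at 50.1 to 63.7, 106 to 140 and 132 to 196 CPM. Ccnb1, cyclin B1, stood at 69.0 to 126, 128 to 253 and 165 to 399 CPM. Mcm6, a subunit of the replicative helicase, stood at 66.2 to 128, 42.8 to 65.4 and 15.6 to 39.3 CPM, with no overlap between ranges. Cell-cycle inhibitors had a higher sum in the highest range (796 to 1041 CPM) than in the lowest (541 to 795 CPM) in 6 of 6 libraries. The stem cell list stood at 847 to 1129, 862 to 1268 and 552 to 1087 CPM, lower in the highest range than in the lowest in 6 of 6 libraries and in the middle than in the lowest in 3 of 6. Median depth was 12251.5 UMIs in the lowest range and 15156 and 14763 in the others, and its part in these differences was not tested.

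The threshold cut through a continuous range. Just inside it, at 8 to under 9 per 10000, lay 261 members, and just outside, at 7 to under 8, lay 355 barcodes. The S-phase sum reached 8 in 40.2% of the former and 42.3% of the latter. Plk1 stood at 24.4 to 43.2 CPM just inside and 13.0 to 41.0 CPM just outside, and the mitotic cyclin list at 851 to 1136 and 834 to 1008 CPM, so both overlapped across the threshold. They were higher just inside in 4 and 5 of 6 libraries. The kinesin list (2127 to 2755 CPM just inside and 1943 to 2530 just outside) and the kinetochore list (985 to 1195 and 827 to 1000 CPM) also overlapped. Both of these lists were higher just inside in 6 of 6 libraries.

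**Figure D3:**
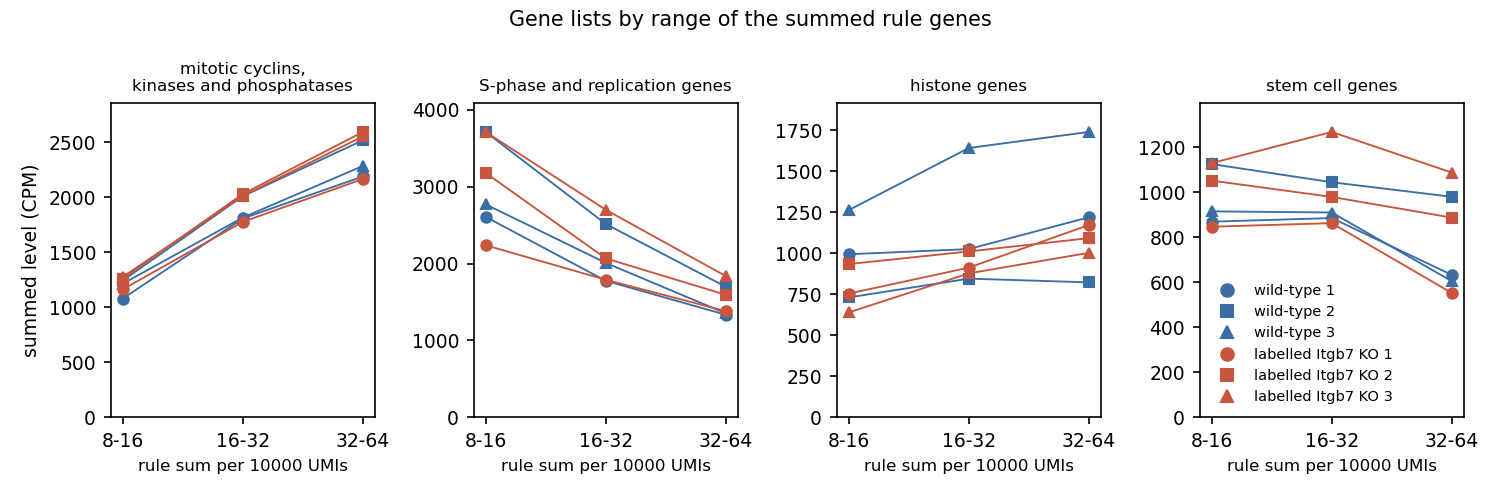
Summed level (CPM, y axes starting at 0) of 4 gene lists in G2/M cells without Lgr5, by range of the rule sum per 10000 UMIs (x axis). Each line is a library. The mitotic cyclin list is higher in each range than in the one before (1079 to 1277 CPM in the lowest and 2168 to 2595 CPM in the highest), and the S-phase list is lower (2238 to 3711 and 1333 to 1836 CPM).

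The 951 eligible barcodes that reached the same sum with an Lgr5 UMI and none of Atoh1 or Neurog3 were the nearest comparison, again without a test, since Lgr5 chose the groups. Their median depths (7701 to 26806 UMIs) lay near those of members. Of 7666 genes, 22.4% were higher in members in 6 of 6 libraries and 18.8% lower. Mitosis lists were level or lower in members. Sums stood at 0.932 to 1.04 for mitotic cyclins, 0.955 to 1.11 for checkpoint genes and 0.839 to 1.002 for kinetochore genes, of which 7 of 22 were lower and 1 higher in 6 of 6. Kinesins, at 0.782 to 0.911, and condensin, cohesin and chromatin genes, at 0.879 to 0.979 with 10 of 20 lower and 1 higher, were below 1 in sum in all 6 libraries. All 22 stem cell genes above the limit were lower in members in 6 of 6 libraries, with a sum at 0.395 to 0.454. Ascl2, a Wnt-driven stem cell factor, stood at 30.8, 38.2 and 27.8 CPM in members of the wild-type libraries and 24.7, 26.9 and 31.0 CPM in those labelled Itgb7 KO, against 117.6, 146.4, 110.3, 110.1, 114.0 and 115.0 CPM in the Lgr5-positive barcodes. The 2 populations did not overlap, and Ascl2 was 3.72 to 4.46 times lower in members. Gkn3, a secreted stem cell marker, was 3.80 to 5.53 times lower, Igfbp4, which binds insulin-like growth factors, 3.32 to 3.93 times, and Sox4 2.86 to 3.34 times. Axin2, a Wnt target, stood at 0.347 to 0.393 of its level in Lgr5-positive barcodes.

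The Notch list was lower in sum (0.683 to 0.749) with 4 of 10 genes lower in 6 of 6 libraries, Hes1 among them at 0.618 to 0.732. MHC class II genes stood at 0.321 to 0.771 and S-phase genes at 0.788 to 0.941 (18 of 39 lower and 2 higher). Genes of absorptive cells were higher in members. Of 18 enterocyte markers 14 were higher in 6 of 6 libraries and 0 lower (1.36 to 1.85 times in sum), and Fabp1, a fatty acid binding protein, was 1.47 to 2.85 times as high. Rbp7, a retinol binding protein, averaged 323 ± 78.1 CPM (SD, n = 6) in members and 105 ± 25.8 CPM (SD, n = 6) in Lgr5-positive barcodes. Arg2, an arginase, averaged 199.6 ± 40.1 CPM (SD, n = 6) against 76.5 ± 25.2 CPM (SD, n = 6). Cdkn2b (p15), an inhibitor of the G1 kinases, had the highest smallest ratio of genes with at least 50 CPM in members, 2.82 over a range up to 3.91, at 57.9 ± 17.0 CPM (SD, n = 6) against 19.4 ± 6.89 CPM (SD, n = 6).

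The 2135 S-phase comparison barcodes had 0 UMIs of Lgr5, Atoh1 and Neurog3, a rule sum under 8 and the S-phase sum at 8 or more per 10000. Both sums chose the groups, so these values too are a description. Of 7512 genes, 28.2% were higher in members in 6 of 6 libraries and 16.5% lower. Mitotic cyclins were higher for 14 of 15 genes (3.01 to 3.83 times in sum), kinesins for 26 of 27 and kinetochore genes for 21 of 22, where the other was lower. S-phase and replication genes were lower for 33 of 39 and higher for 2 (0.461 to 0.646 in sum). This list holds the 8 genes that chose the comparison, and all 8 are among those lower, so that part of the count is no finding. Histone genes were instead higher in members for 6 of 7 and lower for 1 (1.89 to 2.52 times in sum). Ung, a uracil-DNA glycosylase used in choosing the comparison, was 6.21 to 10.0 times lower in members, and Cdt1, which licenses replication origins and was not, 3.08 to 5.31 times lower. Cdc20, the activator of the anaphase-promoting complex, stood at 215, 164, 166, 216, 255 and 152 CPM in members and 26.5, 24.1, 35.1, 26.4, 30.8 and 26.0 CPM in the S-phase barcodes, in the order of the libraries used above. Cell-cycle inhibitors were higher in members for 11 of 12 genes (1.40 to 1.57 times in sum), and Cdkn2b, at 29.0 to 70.5 CPM, did not overlap with the 12.6 to 22.6 CPM of the S-phase barcodes. Stem cell genes were lower for 14 of 19 (0.642 to 0.783) and ribosomal protein genes for 18 of 18, and enterocyte markers were higher for 10 of 18 and lower for 1 (1.11 to 1.61).

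Members also differed among themselves along a stem to enterocyte axis. The enterocyte marker sum had a median of 16.8 to 23.1 per 10000 UMIs, with 5th percentiles of 5.97 to 11.4 and 95th percentiles of 52.1 to 72.6. The 25% of members with the highest sum in each library were set against the 25% with the lowest, 114 to 280 cells each. Median depths of the ends were alike, at 28134 UMIs in the lowest and 27277 in the highest 25% of wild-type library 1, and differed most in library 1 labelled Itgb7 KO, at 21998 and 24871 UMIs. The split chose on enterocyte genes, and every gene of these cells may follow it, so no test was made. Stem cell genes stood at 0.184 to 0.286 in the highest 25% relative to the lowest. Ascl2 stood at 80.4, 93.3 and 76.4 CPM in the lowest 25% of the wild-type libraries and 66.5, 73.4 and 68.2 CPM in those labelled Itgb7 KO, against 8.34, 2.78 and 1.26 CPM and 3.13, 3.03 and 2.31 CPM in the highest 25%. Axin2 stood at 0.0652 to 0.301, Slc12a2, a chloride cotransporter of crypt cells, at 0.0984 to 0.228, and Hes1 at 0.636 to 0.764. Secretory fate genes stood at 0.194 to 0.283 in sum, and Cd74, the invariant chain of MHC class II, at 0.0790 to 0.461.

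Mitosis lists differed less between these ends than stem cell genes did. Kinesin and spindle genes, at 0.799 to 0.952, were lower in the highest 25% in all 6 libraries. So were condensin, cohesin and chromatin genes, at 0.845 to 0.928, and kinetochore genes, at 0.939 to 0.989. The mitotic cyclin list stood at 0.984 to 1.07, the rule genes at 0.998 to 1.13 and the checkpoint list at 1.03 to 1.15, and Cdk1 at 0.904 to 1.12, whereas S-phase genes stood at 0.647 to 0.802. Cell-cycle inhibitors were higher in the highest 25%, at 1.27 to 1.81. Cdkn1a (p21), an inhibitor of cyclin-dependent kinases, stood at 49.2, 59.3, 78.7, 26.2, 37.6 and 45.5 CPM in the lowest 25% and 114.6, 162.3, 180.4, 137.9, 182.1 and 167.6 CPM in the highest 25% of the same 6 libraries, a ratio of 2.29 to 5.27. Cdkn2b had a ratio of 6.39 to 16.2 and Arg2 of 5.58 to 11.96. In all 6 libraries both inhibitors were thus higher in members with more enterocyte transcripts, at a like level of the mitotic cyclin list.

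**Figure D4:**
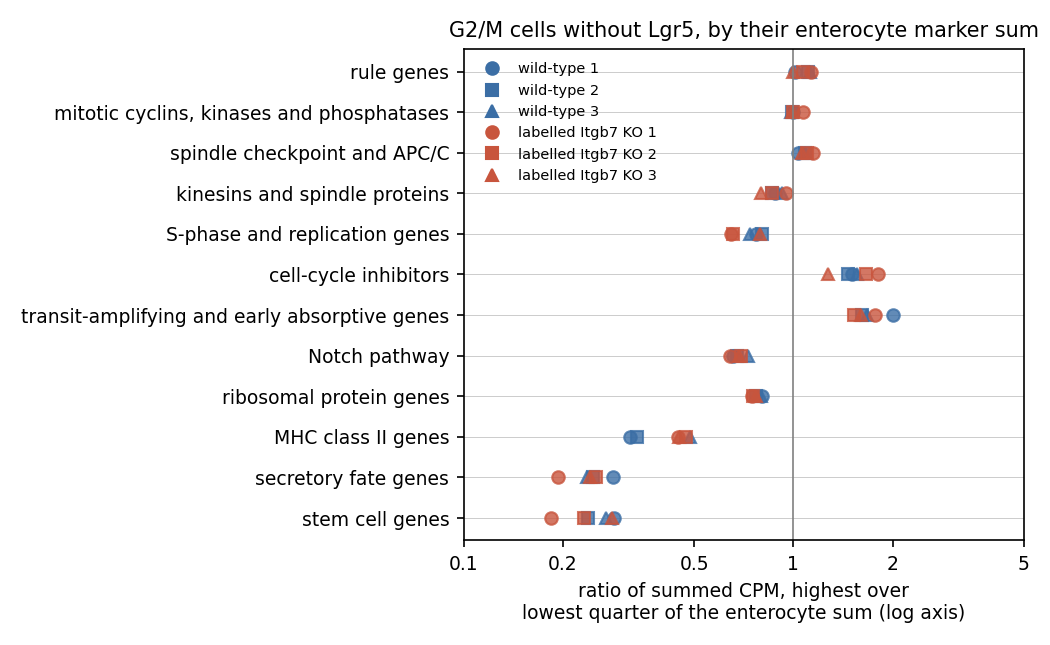
Summed level (CPM) of gene lists in the 25% of G2/M cells without Lgr5 with the highest enterocyte marker sum over that in the 25% with the lowest, within each library, on a log axis. Points are the 6 libraries, and the grey line marks equal levels. Stem cell genes lie at 0.184 to 0.286, mitotic cyclins at 0.984 to 1.07 and cell-cycle inhibitors at 1.27 to 1.81.

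Itgb7, the gene named in the labels, was counted 0, 1 and 0 times in members of the wild-type libraries and 9, 13 and 4 times in those labelled Itgb7 KO. Over all barcodes the counts were 3, 8 and 2 against 18, 33 and 12. These counts go against the labels. A 3′ count outside the deleted part checks nothing, and that part is not given, so the genotype is written below as labelled and each direction rests on the labels. In members 0.717, 0.938 and 0.794 CPM stood against 0, 0.0764 and 0 CPM, too few UMIs for the gene to enter the test.

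The summed UMI counts of members were compared between the labelled genotypes with edgeR's quasi-likelihood test and Benjamini-Hochberg adjustment, a contrast the rule did not use. Of 11365 genes tested, 1 was called (0.0088%) at an adjusted p of 0.05, and 319 had an unadjusted p under 0.05, 175 of them higher in the libraries labelled Itgb7 KO. DESeq2 called 5 of 11351 (0.044%). All 3 libraries labelled Itgb7 KO lay above all 3 wild-type libraries for 366 genes (3.22%) and below for 471 (4.14%).

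The gene called was Agpat4 (chr17:12118704-12219645, plus strand, GRCm38, GENCODE M21), an acyltransferase that makes phosphatidic acid, and it was lower in the libraries labelled Itgb7 KO. It stood at 19.4, 17.7 and 16.2 CPM in members of the wild-type libraries and at 2.95, 1.95 and 1.79 CPM in those labelled Itgb7 KO. The groups did not overlap, and the log2 fold change was -2.89 ± 0.24 (SE, edgeR, adjusted p = 0.0215, n = 3 a group). The call was lost when any library but library 1 labelled Itgb7 KO was left out, with adjusted p from 0.0952 to 0.316 by edgeR and log2 fold changes from -2.96 to -2.72, and after thinning (-2.63, adjusted p = 0.379). In other barcodes Agpat4 was lower to a like extent, at 17.4, 17.5 and 15.2 CPM against 2.28, 2.52 and 1.89 CPM, and the difference between the 2 populations was -0.08 ± 0.19 on the log2 scale (SE, edgeR interaction term, adjusted p = 0.999984). The other 5 genes of the Agpat family tested were not called.

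Mtus2 (chr5:147957320-148316065, plus strand), a microtubule-associated protein gene, missed the threshold in edgeR. It stood at 6.54, 8.64 and 6.25 CPM against 1.04, 1.37 and 0.595 CPM, with no overlap (log2 fold change -2.57 ± 0.27, SE, edgeR adjusted p = 0.0576). It was called by DESeq2 (adjusted p = 3.84e-09). DESeq2 also called 3 genes as higher in the libraries labelled Itgb7 KO that edgeR did not call in the same design. The first, 2210407C18Rik, stood at 95.4, 102 and 90.2 CPM against 207, 192 and 237 CPM (edgeR log2 fold change 1.12 ± 0.14, SE, adjusted p = 0.157, DESeq2 adjusted p = 5.86e-09). Adh6a, an alcohol dehydrogenase, stood at 68.0, 96.5 and 82.0 CPM against 119, 170 and 152 CPM (0.81 ± 0.15, edgeR adjusted p = 0.965, DESeq2 0.00727). Psmb8, a catalytic subunit of the immunoproteasome, stood at 153, 107 and 143 CPM against 288, 251 and 233 CPM (0.91 ± 0.20, edgeR adjusted p = 0.965, DESeq2 0.0469). For each of the 3 the groups did not overlap. In alternatives edgeR called 2210407C18Rik without a filter on low counts (adjusted p = 0.0335) and Psmb8 with the serial groups as a block (adjusted p = 0.0371), a fit in which wild-type library 3, alone in its group, adds nothing to the contrast.

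Other genes whose groups did not overlap had an adjusted p of 0.965 in edgeR. Psmb9, another immunoproteasome subunit, stood at 110.2, 101.03 and 109.7 CPM against 162, 157 and 160 CPM. Sord, a sorbitol dehydrogenase, stood at 46.1, 51.0 and 36.8 CPM against 23.3, 29.9 and 30.4 CPM, and Mgam, a brush border maltase, at 164, 119 and 135 CPM against 113, 94.3 and 69.1 CPM. By the same rule AW112010, Epsti1, Onecut2 and Sdf2l1 were on the side higher in the libraries labelled Itgb7 KO, and Osr2, Ssbp4, Ngfrap1, Cgn, Wdr82 and Baiap2l2 on the lower side.

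No gene of the mitosis lists was called between the labelled genotypes by edgeR or DESeq2. In edgeR, 1 gene of the mitotic cyclin list and 0 of the kinesin, kinetochore, checkpoint and S-phase lists had an unadjusted p under 0.05. Over all 11365 genes tested, 319 did. The median log2 fold change was -0.05 over 16 mitotic cyclin, kinase and phosphatase genes (7 positive, 9 negative), 0.03 over 29 kinesin genes, 0.02 over 22 kinetochore genes, 0.03 over 16 checkpoint genes and -0.07 over 39 S-phase genes, beside -0.003 over all genes tested. Ccnb1 stood at 136, 154 and 108 CPM against 138, 222 and 217 CPM (0.49 ± 0.19, SE, edgeR adjusted p = 0.965), high in libraries 2 and 3 labelled Itgb7 KO and level between the libraries numbered 1. Stem cell genes had a median of 0.03 and enterocyte markers of 0.07, with 12 positive and 10 negative in each list. Histone genes had a median of -0.25 (11 of 12 negative) and ribosomal protein genes of -0.22 (18 of 18 negative, 3 without overlap). Of all genes tested, 4.14% lay lower in the libraries labelled Itgb7 KO without overlap. The histone median ranged from -0.44 without wild-type library 2 to -0.08 without wild-type library 3, and was -0.39, -0.17 and -0.16 without library 1, 2 or 3 labelled Itgb7 KO. The ribosomal median ranged from -0.45 without library 1 labelled Itgb7 KO to -0.146 without library 3. Leaving out 1 library turned the sign of the median for the cyclin, kinesin, kinetochore, S-phase, stem cell and enterocyte lists, all of which stayed between -0.17 and 0.22.

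Immune lists had larger medians, with 0 genes called by edgeR and 1, Psmb8, by DESeq2. As a background for the counts below, 319 of all 11365 genes tested had an unadjusted p under 0.05 in edgeR. Of all genes tested, 3.22% lay higher in the libraries labelled Itgb7 KO without overlap. With the serial groups as a block edgeR called 3 immune genes, Psmb8, Ifi44 and Igtp. Ifi44, an interferon-induced gene, stood at 0.149, 0.0764 and 1.097 CPM against 6.61, 1.08 and 1.39 CPM (log2 fold change 2.59 as reported and 3.70 with that block, edgeR adjusted p = 0.965 and 0.0371). Igtp, an interferon-induced GTPase, stood at 2.82, 1.22 and 4.83 CPM against 16.0049, 6.13 and 5.95 CPM (1.67 and 2.30, adjusted p = 0.965 and 0.0211). Interferon response genes had a median log2 fold change of 0.94 (21 of 21 positive, 10 with an unadjusted p under 0.05, 6 without overlap), and their sum was 386, 364 and 499 CPM against 1131, 558 and 595 CPM. Without library 1 labelled Itgb7 KO, the highest, the median was 0.41. MHC class II genes had a median of 1.501 (7 of 7 positive, 6 with an unadjusted p under 0.05, 6 without overlap), and their sum was 543, 98.3 and 323 CPM against 1150, 903 and 831 CPM. Wild-type library 2 was the lowest of the 6, and the median was 1.06 without it and 2.09 without wild-type library 1. Cd74 stood at 323, 35.2 and 182 CPM against 689, 593 and 552 CPM (1.71 ± 0.65, SE, edgeR adjusted p = 0.965). MHC class I and immunoproteasome genes had a median of 0.34 (12 of 12 positive, 5 with an unadjusted p under 0.05, 6 without overlap). The same lists had medians of 0.90, 1.41 and 0.38 in other barcodes, and median interaction terms of 0.02, 0.08 and -0.04. Leukocyte markers summed to 3.42, 1.68 and 2.52 CPM in members of the wild-type libraries, against 1.75, 2.02 and 1.59 CPM. The goblet and enteroendocrine marker lists also had medians away from 0, with 0 genes called in either. Goblet markers had a median of -0.59 (12 of 12 negative, 1 without overlap). Their sums overlapped between the groups, at 5477, 2301 and 5119 CPM against 4204, 2628 and 2416 CPM. Enteroendocrine markers had a median of 0.86 (13 of 16 positive, 3 without overlap), with sums of 199, 109 and 195 CPM against 325, 316 and 375 CPM. The goblet median ranged from -0.99 without library 1 labelled Itgb7 KO to -0.34 without wild-type library 1, and was -0.37 without wild-type library 3. The part of leukocyte, goblet or enteroendocrine RNA in the results on immune genes was not tested.

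**Figure D5:**
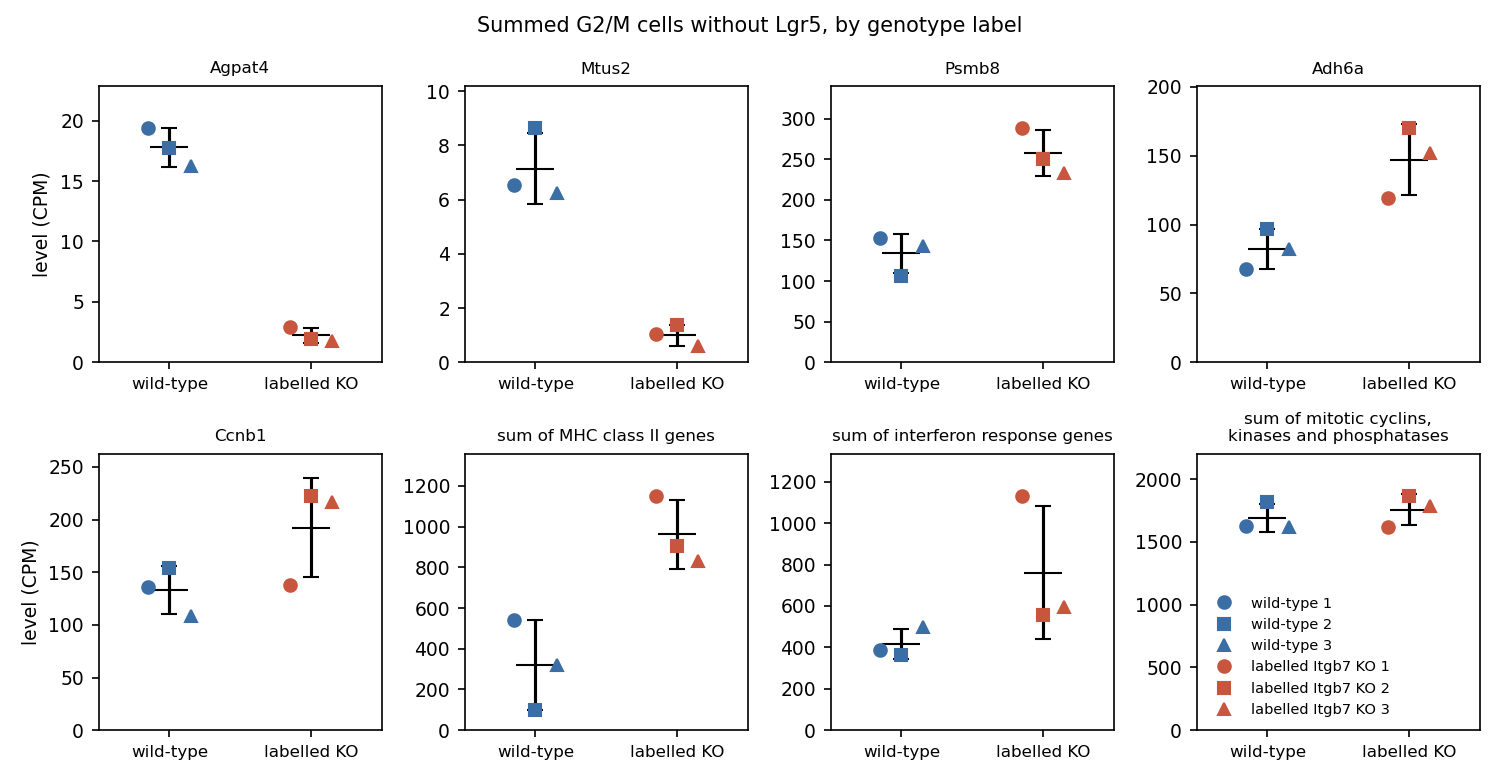
Level (CPM, y axes starting at 0) of 5 genes and 3 gene lists in summed G2/M cells without Lgr5, by genotype label. Points are libraries, and horizontal marks and bars are the mean and SD of 3 libraries. The groups do not overlap for Agpat4, Mtus2, Psmb8, Adh6a and both immune lists, and overlap for Ccnb1 and the mitotic cyclin list, and of these genes edgeR called Agpat4 alone.

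Whether a genotype difference was unlike in members and in other barcodes was tested directly, as the interaction of genotype and population with the library as a block. Of 12662 genes, edgeR called 0 (0%), with 358 at an unadjusted p under 0.05. Against the S-phase barcodes in place of all others, 2 genes were called. Reg3b stood at 2616, 395 and 559 CPM against 969, 669 and 1428 CPM in members and at 1498, 179 and 293 CPM against 715, 501 and 1022 CPM in S-phase barcodes (interaction -0.51 ± 0.06, SE, edgeR adjusted p = 0.00039). Fabp6, an ileal bile acid binding protein, stood at 226, 94.5 and 222 CPM against 141, 55.0 and 80.6 CPM in members and at 158, 27.3 and 86.1 CPM against 248, 42.6 and 128 CPM in S-phase barcodes (interaction -1.60 ± 0.22, SE, edgeR adjusted p = 0.00063). Both differ widely between libraries of 1 group.

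Without the libraries numbered 1, which stood apart, 7 genes were called in the interaction with other barcodes. Ccnb1 was among them: in libraries 2 and 3 it stood at 154 and 108 CPM in wild-type members and 222 and 217 CPM in those labelled Itgb7 KO, against 42.8 and 31.99 and 45.7 and 36.8 CPM in other barcodes (interaction 0.55 ± 0.08, SE, edgeR adjusted p = 0.0311, n = 2 a group, an analysis added after the data were seen). With all libraries the term for Ccnb1 was 0.39 with an adjusted p of 0.999984, and the rule chose members on genes that share its phase. The others were Actb, Chga, Gm14850, Gm26909, Mt2 and Tac1.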

How the data were processed

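The authors deposited UMI counts, whole numbers for every gene in every barcode, without scaling. The tools listed, per the submitters' processing notes, are Cell Ranger 2.1.1, bcl2fastq 2.17.1.14 and Seurat, the last with no version, and the build is mm10. Per the labels' protocols the libraries were made with the Chromium 3′ kit, version 2. The matrices held 27998 genes and 26153 barcodes, of which 3 had under 500 genes and 107 over 25% mitochondrial UMIs. Gene positions were taken by identifier from GENCODE M21, which held 98.7% of the identifiers.

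Members, gene lists and tests were chosen with earlier results of these data known, and the named genes followed written rules: the rule genes, the leading genes of each list, genes called, the 8 genes in each direction with the smallest p and no overlap, and those with the most extreme ratios to other barcodes. Further genes named as examples of a list, the leading genes of the ratios to Lgr5-positive and S-phase barcodes, the 25% ends of the enterocyte sum with the genes named there, and the analysis without the libraries numbered 1 were chosen after the data were seen. CPM are counts of a population summed per library, per 1000000 UMIs of that sum. Sums were tested with edgeR 4.0.16 in R 4.3.3 (TMM, filterByExpr, prior count 2, quasi-likelihood, adjusted p of 0.05), and with DESeq2 1.42.0 as an alternative. Shares were tested over libraries by exact permutation in Python 3.11.15. The edgeR tests were also run on simulated counts, built from the means and dispersions of these data. Doublets were not called, and as an alternative the deepest 5% of barcodes of each library were left out. Deviations of genes from the group means correlated between libraries of the same number (r = 0.838, 0.534 and 0.330 over 2789 genes), so the numbers were taken as pairs, although wild-type library 2 correlated more with library 3 labelled Itgb7 KO (0.779) and wild-type library 3 with library 2 (0.383). Promoters were matched by gene symbol in the RefSeq table, for all 8 rule genes.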

Additional observations from a re-analysis of the deposited data

How the results depend on the processing

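The share of G2/M cells differed by 0.814 to 3.76 percentage points when 1 library was left out and by 2.11 without both libraries numbered 1, and turned to -0.788 after thinning to 3000 UMIs. It was 0.750 with any Lgr5 count and 0.648 as a share of barcodes with Lgr5, Atoh1 and Neurog3 at 0. The number of genes called between the labelled genotypes was 5 with DESeq2, 5 with the serial number groups as a block, 3 without a filter on low counts and 0 after thinning (297 genes at an unadjusted p under 0.05), against 1 by edgeR as reported. Leaving out 1 library gave 0 to 1 calls. It was 0 (165 to 325 genes at an unadjusted p under 0.05) without any library other than library 1 labelled Itgb7 KO, and 1, Agpat4, without that library (adjusted p = 0.00168). The replicate block, with libraries paired by number, gave 1 call, Agpat4 (log2 fold change -2.92, adjusted p = 0.00953 by edgeR), and changed no other call. By edgeR, Mtus2 was also called without a filter (adjusted p = 0.00228) and with serial groups as a block (0.0248), 2210407C18Rik without a filter, and Psmb8, Ifi44 and Igtp with that block.

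The interaction of genotype and population gave 8 calls without a filter on low counts, 2 against S-phase barcodes, 0 to 1 with 1 library left out (Gm14850 without library 1 labelled Itgb7 KO) and 7 without both libraries numbered 1. The 8 were Defa23, Defa3, Gm14850, Gm15284, Gm7861, Gsta4, Gip and Nts, of which the defensins have near-identical copies, so that their counts are uncertain. In other alternatives the calls stayed at 1 and 0. The cause of these changes was not tested. With 3 libraries a group, at 5039407 to 13864557 UMIs, small differences and genes of a few CPM were not detectable, and Lgr5, Atoh1 and Neurog3 at 0 UMIs are a limit of counting.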
